A study of Homo sapiens with 5 samples.

Results

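The 10 genes described here are MEIOB, HORMAD1, HORMAD2, TEX15, HIST1H1T, ACTL8, TRIML2, ALPP, ALPPL2 and NLRP2, which are known from meiosis, the testis, the placenta or the oocyte. They are 10 of the 14084 rows of a table of ribosome footprint counts, taken by gene symbol with the row of most counts standing for a symbol. They were picked for their difference between the groups in this same table, so their counts and folds are given as a description and carry no test. The cells are HAP1, an established human line that is close to haploid and descends from a leukaemia line. The 5 libraries form 2 groups by genotype, METTL18 knockout (n = 3) and wild type (n = 2). The enzyme METTL18 adds a methyl group to a histidine of the ribosomal protein RPL3, and the study asked what it does in haploid human cells. The sources used here do not give the kind of mutation. Nor do the labels say whether the libraries of a group are separate cultures or clones, so each p-value reflects the spread among these libraries alone, and that spread may be technical.

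Footprints are pieces of RNA left after nuclease treatment because a ribosome covered them. More mRNA and more ribosomes per mRNA both add footprints and were not separated here, and a change in a share of the cells cannot be told apart from a change in every cell. The knockout libraries held 16339574 to 17629199 counts and the wild-type libraries 4887380 and 5302160, so the knockout was sequenced 3.33-fold deeper on average. CPM stands for counts per 1000000 counts of a library after TMM scaling. METTL18 itself averaged 2.10 ± 0.117 CPM in knockout libraries and 5.70 ± 0.211 CPM in wild-type libraries (SD, n = 3 and n = 2), and the edgeR quasi-likelihood test gave a log2 fold change of -1.44 (adjusted p = 2e-06, SE 0.247). Its footprints were lower and not absent. RPL3 averaged 3728 ± 50.6 CPM in knockout libraries and 1830 ± 54.8 CPM in wild-type libraries, and the edgeR quasi-likelihood test gave a log2 fold change of 1.03 (adjusted p = 4.82e-27, SE 0.0353). Of 11335 genes tested at an adjusted p under 0.05, 4288 (37.8%) were higher and 4143 (36.6%) lower in the knockout, 74.4% in all. Scaling by total counts gave 2982 higher and 5597 lower, since it moved the median log2 fold change of all genes tested to -0.255, beside 0.016 with TMM.

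Meiosis pairs the parental chromosomes, breaks their DNA and repairs the breaks so that the pairs exchange segments. HORMAD1 and HORMAD2 are proteins of the chromosome axis, MEIOB binds single-stranded DNA at the repair sites, and TEX15 is needed in the mouse for the repair of meiotic breaks and for silencing of transposons in the male germ line. HIST1H1T is the linker histone of the testis, and ACTL8 is an actin-like protein known as a cancer testis antigen, a class of genes used in the testis and again in some tumours. ALPP and ALPPL2 are alkaline phosphatases held at the outer cell membrane by a glycosylphosphatidylinositol (GPI) anchor: ALPP is the placental enzyme and ALPPL2 the closely related germ cell enzyme. NLRP2 is an NLR family protein with a maternal role in early embryos, and TRIML2 belongs to a family related to the TRIM proteins. Most of these genes are little used outside those tissues.

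The genes fell into a large group with next to no wild-type footprints and a single gene that went the other way. In the wild type, 5 of the 10 genes (MEIOB, HORMAD1, HORMAD2, ALPP and NLRP2) had 0 counts in both libraries, and 4 (HIST1H1T, ACTL8, TRIML2 and ALPPL2) had 1 to 5 counts over both. In the knockout all of these had counts in each of the 3 libraries. All 10 genes passed the filter on low counts, 9 of them through the knockout libraries. For 9 of the 10, every knockout library lay above every wild-type library in CPM, as was so for 42.5% of all genes tested. TEX15 was the exception, with the groups apart in the other direction, as for 41.0% of all genes tested. The edgeR quasi-likelihood test called the same 9 higher and TEX15 lower, beside the 37.8% and 36.6% of all genes (74.4% in either direction), and nothing is read from these counts because the genes were picked on this contrast. Rows without wild-type counts were common: 1492 rows (10.6%) had 0 in both wild-type libraries, and 122 of these had enough knockout counts to be tested.

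**Figure D1:**
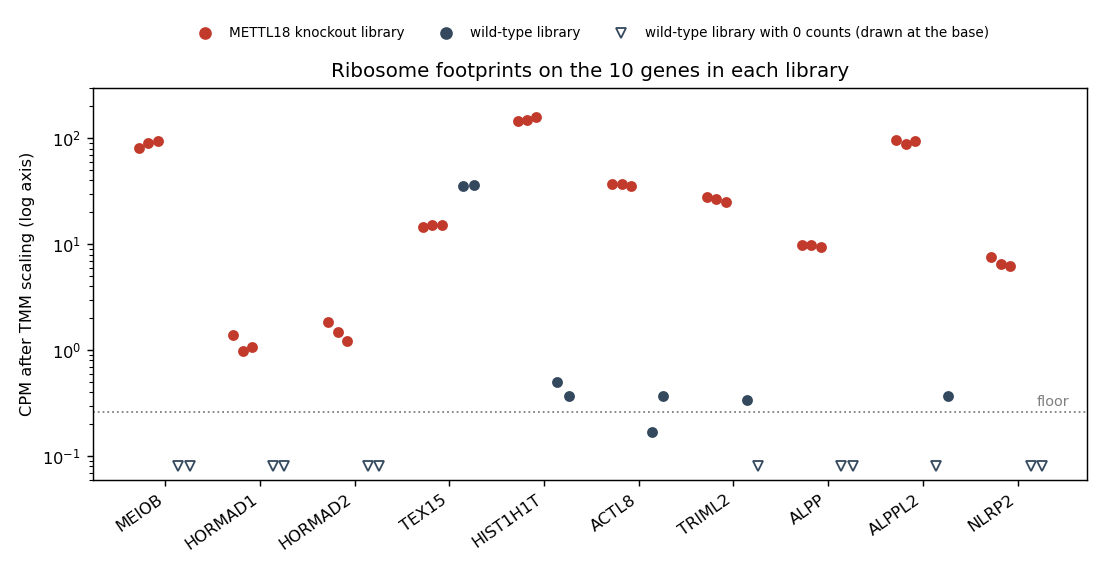
Footprint level of the 10 genes in each library, as CPM after TMM scaling on a log axis, with METTL18 knockout libraries left of wild-type libraries for each gene; each point is a library, open triangles are wild-type libraries with 0 counts drawn at the base, and the dotted line is the wild-type floor of 3 counts over the group (0.263 CPM). Levels are not per length, so genes are compared only within themselves: for 9 genes the knockout points stand above the wild-type points, and for TEX15 they stand below (14.6 to 15.3 CPM in knockout libraries, against 35.5 and 36.6 CPM in wild-type libraries).

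MEIOB (transcript ENST00000397344, hg38 chromosome 16, 1833988 to 1872178, minus strand, 13 exons) held 1239, 1480 and 1483 counts in knockout libraries, against 0 and 0 counts in wild-type libraries. That is 81.8, 90.9 and 94.1 CPM in the knockout, a mean of 88.9 ± 6.37 CPM (SD, n = 3). With the wild type set to a floor of 3 counts summed over its 2 libraries, it was at least 338.1-fold higher. The knockout libraries differed by a coefficient of variation of 7.17%, where counting error alone gives 2.67%. MEIOB works as a partner of replication protein A, the general single-strand binding complex, and the subunits of that complex were measured too.

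HORMAD1 (ENST00000361824, hg38 chromosome 1, 150698253 to 150720876, minus strand, 15 exons) was found at a few counts in every knockout library. It held 21, 16 and 17 counts in knockout libraries, against 0 and 0 counts in wild-type libraries, or 1.15 ± 0.211 CPM in the knockout (SD, n = 3). With so few counts the floor allows only the statement that it was at least 4.37-fold higher. HORMAD2 (ENST00000336726, hg38 chromosome 22, 30080174 to 30177075, plus strand, 11 exons) was at a like level, with 28, 24 and 19 counts in knockout libraries, against 0 and 0 counts in wild-type libraries. Its mean was 1.51 ± 0.323 CPM in the knockout (SD, n = 3), at least 5.739-fold above the floor. For both HORMADs the spread between knockout libraries (18.4% and 21.4%) was close to what counting error alone gives (23.6% and 20.6%). Per coding kilobase the knockout level was 67.1 CPM for MEIOB, 1.64 CPM for HORMAD2 and 0.972 CPM for HORMAD1. Within each knockout library MEIOB stood 52.6-fold to 82.5-fold above HORMAD1 per coding kilobase, and HORMAD2 stood 1.43-fold to 1.93-fold above HORMAD1. The coding sequences of the 2 HORMADs are 67.2% identical with no shared run above 17 bases, shorter than a footprint of 28 to 32 bases.

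The promoter of HORMAD2 is shown because it holds the most CpG of the matched promoters. It is 300 bases, 250 before and 50 after the RefSeq start on GRCh38.p14, at chr22:30080214-30080513 on the plus strand, written 5′ to 3′ with each CpG in capitals.
HORMAD2 promoter: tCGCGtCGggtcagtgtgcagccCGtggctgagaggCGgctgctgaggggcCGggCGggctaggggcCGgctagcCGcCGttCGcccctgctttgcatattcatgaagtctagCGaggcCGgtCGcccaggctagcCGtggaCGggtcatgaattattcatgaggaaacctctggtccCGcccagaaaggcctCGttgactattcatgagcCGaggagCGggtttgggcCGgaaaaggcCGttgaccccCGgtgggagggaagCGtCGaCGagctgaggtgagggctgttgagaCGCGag

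TEX15 (ENST00000256246, hg38 chromosome 8, 30831546 to 30849017, minus strand, 4 exons, coding length 8367 bases) was the only one of the 10 with more than 5 counts in the wild type. It held 221, 249 and 240 counts in knockout libraries, against 211 and 200 counts in the shallower wild-type libraries. In CPM these were 14.6, 15.3 and 15.2 in the knockout, against 35.5 and 36.6 in the wild type. The ratio of knockout to wild type was 0.4176, with an exact 95% binomial interval for counting error of 0.369 to 0.473. Per coding kilobase TEX15 stood at 1.80 CPM in the knockout and 4.31 CPM in the wild type, so its level in the knockout was near that of HORMAD2 and well under that of MEIOB. The genes that move with TEX15 along its chromosome are given further on.

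Other genes of the meiotic programme moved both ways, and their counts stand beside 37.8% higher and 36.6% lower among all genes tested. In this and all later lists, the neighbours included, a gene with 0 wild-type counts passed the filter on low counts through the knockout libraries alone. Such a gene could only rise or not pass. A gene with 1 to 5 counts over both wild-type libraries passed the filter only with the knockout libraries, and it could hardly fall. Of 25 listed genes of the chromosome axis, synapsis and meiotic cohesin, 13 were in the table and 7 had enough counts to test: 5 rose, 2 fell and 0 did not pass, with a median log2 fold change of 0.68, beside 0.016 for all genes tested. C14orf39 (SIX6OS1), a part of the central element of the synaptonemal complex, stood at 7.62 ± 0.507 CPM in knockout libraries and 0.977 ± 0.429 CPM in wild-type libraries (SD, n = 3 and n = 2), and the edgeR quasi-likelihood test gave a log2 fold change of 2.97 (adjusted p = 3.51e-11, SE 0.314). TEX11, an X-linked gene needed for crossovers in male meiosis, stood at 10.1 ± 1.58 CPM in the knockout and 2.37 ± 0.263 CPM in the wild type (log2 fold change 2.10). SYCP2L (-1.15), a relative of the axis protein SYCP2, and SUN1 (-0.57), a nuclear envelope protein that tethers telomeres, fell. The axis remodelling ATPase TRIP13, which acts on HORMA domain proteins, rose by a log2 fold change of 0.47. Of the listed genes too low to test, SYCE3 had 5 counts over the knockout and 2 over the wild type, and TEX12 had 4 and 0. With only genes of a mean CPM of at least 10 tested, 1 gene of this list rose and 2 fell.

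Among 33 listed genes of recombination and meiotic entry, 12 were tested: 8 rose, 1 fell and 3 did not pass (median 0.56, beside 0.016 for all genes tested). The shares were 66.7% higher and 8.33% lower, beside 37.8% and 36.6% of all genes tested. MEI4, a partner of the break-forming complex, held 101 counts over the knockout and 0 over the wild type, at least 8.177-fold higher. It passed the filter on low counts through the knockout libraries alone. DMC1, the strand exchange protein of meiosis, averaged 3.42 CPM in the knockout and 1.23 CPM in the wild type (log2 fold change 1.47), and C19orf57 (BRME1), which works with the BRCA2 partner HSF2BP, rose by 1.41. MND1, a cofactor of DMC1, rose by 0.42, and C11orf80 (TOP6BL), a subunit of the break-forming enzyme, fell by 1.62. The count of rises was 5 and of falls 3 with total-count scaling, and falls numbered 2 without wild type replicate 2. DMC1 was chosen for mention after its values were seen.

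The general partners of these proteins were expressed in both groups. The replication protein A subunits, with which MEIOB works, rose by log2 fold changes of 0.90 (RPA1), 0.83 (RPA2) and 0.91 (RPA3). RPA1 averaged 344 ± 2.97 CPM in the knockout and 185 ± 10.0 CPM in the wild type (SD, n = 3 and n = 2), with an adjusted p of 5.17e-20 in the edgeR quasi-likelihood test. In the list of other HORMA domain proteins and their partners, 6 of 7 were tested: 3 rose, 2 fell and 1 did not pass (median 0.29). The shares were 50.0% higher and 33.3% lower, beside 37.8% and 36.6% of all genes tested. MAD2L1, a HORMA protein of the spindle checkpoint, rose by 0.69 and its partner MAD2L1BP by 0.98, and ATG13, a HORMA protein of autophagy, fell by 0.45. Falls numbered 1 without wild type replicate 1.

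Genes of the germ line and of the piRNA pathway, which silences transposons in germ cells, were mostly too low to test. Of 37 listed, 24 were in the table and 9 were tested: 5 rose, 1 fell and 3 did not pass (median 0.42). That is 55.6% higher and 11.1% lower, against 37.8% and 36.6% of all genes tested. TDRD5, a Tudor domain protein of that pathway, held 219 counts over the knockout and 1 over the wild type, a ratio of 52.9 with an exact 95% binomial interval of 9.40 to 2100. TEX19, a germ cell protein that restrains transposons in the mouse, held 99 counts over the knockout and 0 over the wild type, at least 7.982-fold higher. Both TDRD5 and TEX19 passed the filter on low counts only with the knockout libraries. UTF1 (log2 fold change 1.10), a factor of undifferentiated cells, and TDRKH (0.42), a Tudor domain partner of PIWI proteins, also rose. Some genes of the list had next to no counts in either group: PIWIL2 had 0 counts over the knockout and 1 over the wild type, TDRD1 had 0 and 1, and DDX4 had 11 and 6. Others had footprints in both groups and did not pass: GTSF1 averaged 135 ± 3.42 CPM in the knockout and 145 ± 14.7 CPM in the wild type, and PLD6 averaged 81.6 ± 0.896 CPM and 86.0 ± 4.50 CPM (SD, n = 3 and n = 2). These 5 genes were chosen for mention after their values were seen. Total-count scaling gave 3 rises and 3 falls. Falls numbered 2 without wild type replicate 1 and 0 without wild type replicate 2.

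HIST1H1T (ENST00000338379, hg38 chromosome 6, 26107419 to 26108136, minus strand, 1 exon) had the highest knockout level of the 10 per coding kilobase. It held 2230, 2425 and 2528 counts in knockout libraries, against 3 and 2 counts in wild-type libraries. The means were 152 ± 7.14 CPM in the knockout and 0.435 ± 0.0984 CPM in the wild type (SD, n = 3 and n = 2). The ratio, from counts summed over each group and its scaled library sizes, was 347.3, with an exact 95% binomial interval of 149 to 1070. Per coding kilobase that is 245 CPM in the knockout and 0.701 CPM in the wild type. Every 28-base window of its coding sequence was absent from the table's other coding sequences and from other GENCODE genes. It is 65.2% to 67.6% identical to HIST1H1C, HIST1H1D and HIST1H1E, with no shared run above 14 bases.

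The promoter of HIST1H1T is shown because the gene lies in a histone cluster whose members moved together. It is at chr6:26108086-26108385 (GRCh38.p14) on the minus strand, written 5′ to 3′ along the gene with each CpG in capitals; RefSeq names the gene H1-6.
HIST1H1T promoter: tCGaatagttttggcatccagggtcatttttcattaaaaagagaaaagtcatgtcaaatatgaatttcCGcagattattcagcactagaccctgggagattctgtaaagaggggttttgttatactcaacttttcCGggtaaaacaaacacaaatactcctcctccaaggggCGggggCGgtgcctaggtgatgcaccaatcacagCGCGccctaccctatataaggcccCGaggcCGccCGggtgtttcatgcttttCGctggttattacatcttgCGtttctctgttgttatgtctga

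Linker histones of other cells were higher as well. Of 22 listed linker histones and chromatin proteins of sperm, 11 were in the table and 6 were tested, and 6 rose (median log2 fold change 2.29, beside 0.016 for all genes tested). HIST1H1B (131 counts over the knockout and 2 over the wild type) and HIST3H3 passed the filter on low counts only with the knockout libraries. They could hardly fall, and the median includes them. Among all genes tested 37.8% rose. HIST1H1D, a linker histone of ordinary cells in the same cluster as HIST1H1T, rose, with 594 ± 27.5 CPM in knockout libraries and 59.9 ± 9.46 CPM in wild-type libraries (SD, n = 3 and n = 2), and the edgeR quasi-likelihood test gave a log2 fold change of 3.31 (adjusted p = 2.04e-34, SE 0.0650). HIST1H1C averaged 3448 CPM in the knockout and 1426 CPM in the wild type (1.27), and HIST1H1E averaged 3380 CPM and 1576 CPM (1.10). HIST3H3, the testis H3 variant, held 344 counts over the knockout and 3 over the wild type, a ratio of 27.7 with an exact 95% binomial interval of 9.41 to 135. The sperm histone genes HIST1H2AA and HIST1H2BA stayed at or under 5 counts over a group. The cluster around HIST1H1T showed the same direction: of 33 tested genes within 500 kb, 29 rose, 1 fell and 3 did not pass, and all 25 tested histone genes among them rose. On its sides stand HIST1H2AC (log2 fold change 0.97) and HIST1H4C (0.38), both core histones of dividing cells. HIST1H3C held 43323 counts over the knockout and 14 over the wild type, and HIST1H2BB 25737 and 786. Core histone genes have near-identical copies, and the sources used here do not give how reads with several matches were treated, so a value for 1 core histone gene is uncertain.

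ACTL8 (ENST00000375406, hg38 chromosome 1, 17755313 to 17827063, plus strand, 3 exons) held 564, 597 and 559 counts in knockout libraries, against 1 and 2 counts in wild-type libraries. The level was 36.5 ± 0.907 CPM in the knockout and 0.267 ± 0.140 CPM in the wild type (SD, n = 3 and n = 2). The ratio was 138.6, with an exact 95% binomial interval of 47.3 to 673. Among 30 listed actins and actin-related proteins, 17 were tested: 8 rose, 5 fell and 4 did not pass (median 0.20). As shares these were 47.1% higher and 29.4% lower, beside 37.8% and 36.6% of all genes tested. The cytoplasmic actins ACTB (0.79) and ACTG1 (0.89) and the smooth muscle actin ACTG2 (1.00) rose, and the dynactin subunit ACTR1B (-1.05) fell. Of other testis members, ACTRT3 had 64 counts over the knockout and 5 over the wild type. It was among the rises and passed the filter on low counts only with the knockout libraries. Rises numbered 5 without wild type replicate 2.

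Of 139 listed cancer testis antigens, ACTL8 not counted, 59 were in the table and 27 were tested: 14 rose, 5 fell and 8 did not pass (median 0.41). Rises made up 51.9% and falls 18.5%, beside 37.8% and 36.6% of all genes tested. PLAC1, an X-linked gene of the placental trophoblast, was among the rises, with 13.2 ± 0.897 CPM in knockout libraries and 0.443 ± 0.150 CPM in wild-type libraries (SD, n = 3 and n = 2), and the edgeR quasi-likelihood test gave a log2 fold change of 4.89 (adjusted p = 4.64e-17, SE 0.327). SSX5 held 200 counts over the knockout and 0 over the wild type, and CTCFL, the testis paralogue of CTCF, held 290 and 4. Both were chosen for mention after their values were seen. PLAC1, SSX5, CTCFL and SPAG4, all among the rises, passed the filter on low counts only with the knockout libraries. The MAGE family, the classical antigens of this class, had few or no counts: MAGEA3 and MAGEA11 had 0 counts in all libraries, MAGEA6 had 1 over the knockout and 0 over the wild type, and MAGEB2 had 13 and 0. KDM5B, a histone demethylase (0.56), rose, and PBK, a mitotic kinase (-0.86), and ELOVL4, a fatty acid elongase (-2.15), fell. Several of these genes serve all dividing cells, and without them, a choice made after seeing the data, 9 rose and 1 fell. That choice took out PBK, NUF2, SPAG9 and DCAF12, which fell, and ATAD2, CEP55, KDM5B, KIF2C and OIP5, which rose. The counts of the trimmed list are therefore not set against the shares of all genes tested. Total-count scaling gave 9 falls with the whole list.

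ALPPL2 and ALPP lie next to each other on chromosome 2. ALPPL2 (ENST00000295453, hg38 232406843 to 232410714, plus strand, 11 exons) held 1459, 1453 and 1477 counts in knockout libraries, against 0 and 2 counts in wild-type libraries. Its level was 93.1 ± 3.57 CPM in the knockout and 0.183 ± 0.259 CPM in the wild type (SD, n = 3 and n = 2), a ratio of 530.5 with an exact 95% binomial interval of 147 to 4380. ALPP (ENST00000392027, hg38 232378534 to 232382889, plus strand, 11 exons) held 150, 159 and 150 counts in knockout libraries, against 0 and 0 counts in wild-type libraries. At 9.73 ± 0.197 CPM in the knockout (SD, n = 3) it was at least 36.99-fold above the floor. Per coding kilobase, ALPPL2 stood at 58.3 CPM and ALPP at 6.06 CPM in the knockout.

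The 2 genes share much of their sequence. Over 1596 aligned coding bases 1561 (97.8%) are identical, and the longest shared run is 339 bases, longer than any footprint. Only 39.1% of 28-base windows of ALPPL2 and 36.9% of those of ALPP occur in none of the table's other coding sequences. The sources used here do not give how reads that match both were counted. The split between the pair is therefore uncertain, and so is how many of the ALPP counts come from ALPP. The ratio of ALPPL2 to ALPP counts was 9.73, 9.14 and 9.85 in the 3 knockout libraries.

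Their promoters, shown because the rows of both genes had more counts in the knockout, are 86.7% identical (254 of 293 aligned bases). They lie at chr2:232406594-232406893 for ALPPL2 (ALPG in RefSeq) and chr2:232378501-232378800 for ALPP, GRCh38.p14, plus strand, with each CpG in capitals.
ALPPL2 promoter: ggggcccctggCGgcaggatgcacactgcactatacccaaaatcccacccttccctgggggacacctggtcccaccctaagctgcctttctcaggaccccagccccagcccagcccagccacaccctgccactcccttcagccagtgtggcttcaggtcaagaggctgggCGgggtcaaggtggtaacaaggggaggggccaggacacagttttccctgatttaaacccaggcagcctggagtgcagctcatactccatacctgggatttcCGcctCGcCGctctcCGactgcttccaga
ALPP promoter: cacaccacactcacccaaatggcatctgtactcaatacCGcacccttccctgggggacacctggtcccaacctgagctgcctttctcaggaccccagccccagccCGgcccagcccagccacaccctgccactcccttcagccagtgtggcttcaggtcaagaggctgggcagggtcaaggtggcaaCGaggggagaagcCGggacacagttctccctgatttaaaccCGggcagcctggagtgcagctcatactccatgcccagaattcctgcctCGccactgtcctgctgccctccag

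The third gene of this cluster, ALPI, the intestinal enzyme, held 2, 0 and 0 counts in knockout libraries and 0 in both wild-type libraries. ALPL, the tissue-nonspecific enzyme on chromosome 1, was expressed in both groups and rose, with 281 ± 14.2 CPM in knockout libraries and 32.9 ± 1.56 CPM in wild-type libraries (SD, n = 3 and n = 2), and the edgeR quasi-likelihood test gave a log2 fold change of 3.09 (adjusted p = 3.10e-33, SE 0.0709). Its coding sequence is 66.0% identical to that of ALPP, with no shared run above 16 bases. Of the genes that make and attach the GPI anchor, more fell than rose. Of 30 listed genes, ALPL and ALPI included, 25 were tested: 6 rose, 15 fell and 4 did not pass, with a median of -0.45. Those are 24.0% higher and 60.0% lower, beside 37.8% and 36.6% of all genes tested. PIGK (-1.09) and PIGT (-1.02), subunits of the transamidase that attaches the anchor, fell, as did GPAA1 of the same complex (-0.52), while its subunit PIGS (0.61) rose. DPM1 (0.54), a subunit of the mannose donor synthase, rose. GPAA1 and PIGS were chosen for mention after their values were seen.

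TRIML2 (ENST00000512729, hg38 chromosome 4, 188091273 to 188105593, minus strand, 7 exons) held 426, 439 and 392 counts in knockout libraries, against 2 and 0 counts in wild-type libraries. Its level was 26.6 ± 1.65 CPM in the knockout and 0.168 ± 0.238 CPM in the wild type (SD, n = 3 and n = 2), a ratio of 151.9 with an exact 95% binomial interval of 42.0 to 1260. The only gene of the table placed within 500 kb is ZFP42 (REX1), a marker of pluripotent cells whose start lies 110 kb downstream of that of TRIML2. ZFP42 held 2191, 2341 and 2181 counts in knockout libraries, against 0 and 0 counts in wild-type libraries. Of 61 listed TRIM and TRIM-like genes, 37 were tested: 18 rose, 4 fell and 15 did not pass (median 0.39). Rises were 48.6% and falls 10.8%, beside 37.8% and 36.6% of all genes tested. TRIM71, a regulator of early embryonic cells, rose by a log2 fold change of 3.06, and TRIM24 (1.63) and the corepressor TRIM28 (0.98) rose, while TRIM9 (-1.36), a neuronal ligase, fell.

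NLRP2 (ENST00000620082 in the table, hg38 chromosome 19; its longest GENCODE coding transcript spans 54965252 to 55001142, plus strand, 13 exons) held 114, 107 and 99 counts in knockout libraries, against 0 and 0 counts in wild-type libraries. At 6.79 ± 0.652 CPM in the knockout (SD, n = 3) it was at least 25.83-fold above the floor, and its knockout level per coding kilobase was 2.13 CPM. Of its 28-base windows 81.8% are in no other GENCODE gene. Its close relative NLRP7, which is known from maternal mutations in molar pregnancy, held 41 counts over the knockout and 0 over the wild type, at least 3.303-fold higher, and NLRP12 held 45 and 0, at least 3.608-fold higher. Of 31 listed NLR genes and genes of the oocyte's subcortical complex, 9 were tested: 3 rose, 3 fell and 3 did not pass (median -0.02). Each direction held 33.3%, beside 37.8% higher and 36.6% lower among all genes tested. NLRP7 and NLRP12, which make up 2 of the 3 rises, passed the filter on low counts through the knockout libraries alone. PYCARD, the inflammasome adaptor, rose by a log2 fold change of 1.24, and KHDC1 fell by 2.09. The oocyte gene ZAR1 had 3 counts over the knockout and 0 over the wild type. Rises numbered 1 without METTL18 knockout replicate 2.

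Placental genes outside the 10 moved both ways. Of 78 listed genes of the trophoblast, the cell layer that forms the placenta's surface, 45 were in the table and 26 were tested: 13 rose, 5 fell and 8 did not pass (median 0.52). This is 50.0% higher and 19.2% lower, beside 37.8% and 36.6% of all genes tested. PEG10, an imprinted gene derived from a retrotransposon and needed for the placenta in the mouse, averaged 1425 ± 45.2 CPM in knockout libraries and 358 ± 12.9 CPM in wild-type libraries (SD, n = 3 and n = 2), and the edgeR quasi-likelihood test gave a log2 fold change of 1.99 (adjusted p = 3.61e-34, SE 0.0431). LIN28B (2.80), an RNA-binding protein of early embryos, and GATA2 (1.87), a factor of trophoblast and blood, rose. CDX2 (-3.63), an early trophoblast factor, and CAPN6 (-4.87), a calpain-like protein, fell, and both were chosen for mention after their values were seen. The genes of mature syncytiotrophoblast were near 0: the hormone subunit gene CGA had 0 counts over the knockout and 1 over the wild type, and PSG1, PSG3 and PSG8 had 0 in all libraries. Without KRT7, KRT18, TFAP2A, TFAP2C, CDKN1C, SDC1, HMOX1 and EGLN3, which other cells also use, 8 rose. These genes were taken out after seeing the data, and KRT8 was left in. The trimmed count is therefore not set against the shares of all genes tested.

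**Figure D2:**
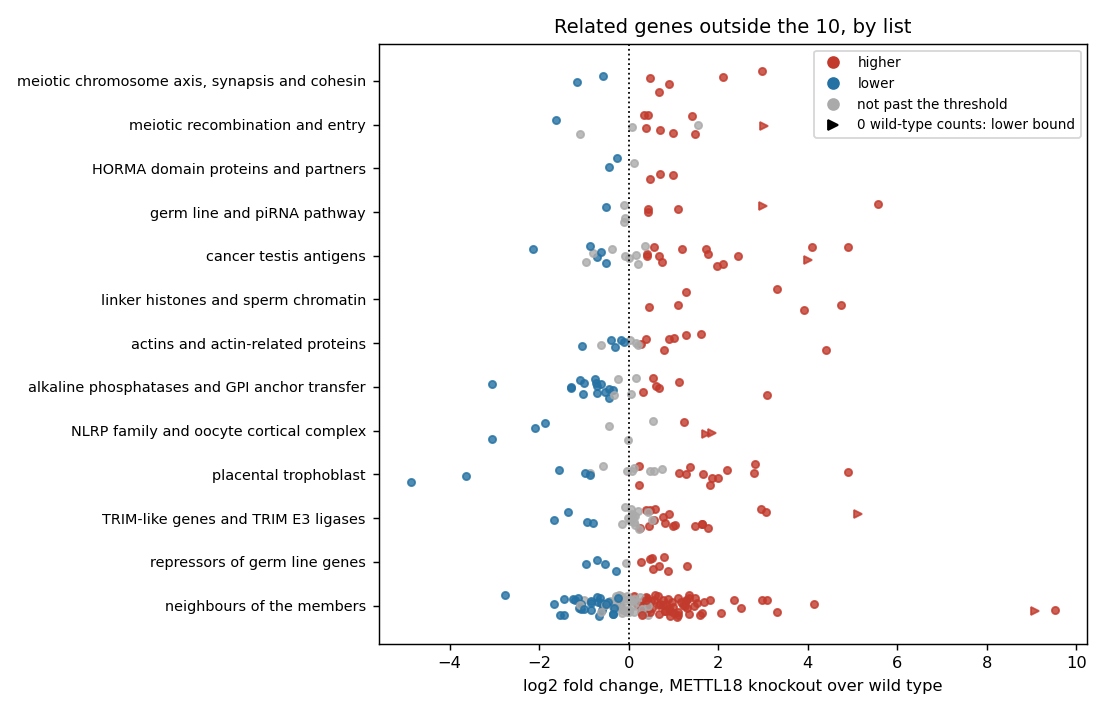
Log2 fold change, METTL18 knockout over wild type, of each tested gene outside the 10, in 12 gene lists and among the neighbours (rows); each point is a gene, coloured by its call at an adjusted p under 0.05 in the edgeR quasi-likelihood test, and triangles mark genes with 0 wild-type counts, drawn at the lower bound against the floor. The 6 tested genes of the row of linker histones and sperm chromatin all stand right of 0. HIST1H1B and HIST3H3 among them passed the filter on low counts only with the knockout libraries. The row of alkaline phosphatases and GPI anchor genes has 15 of 25 genes called lower. Among all genes tested 37.8% were called higher and 36.6% lower.

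Genes of the germ line are kept silent, as known from mouse embryonic stem cells, by a complex of PCGF6, E2F6, MGA, L3MBTL2 and partners. Of 14 listed, 13 were tested: 8 rose, 4 fell and 1 did not pass (median 0.47). Higher calls made up 61.5% and lower calls 30.8%, beside 37.8% and 36.6% of all genes tested. MGA (0.78), PCGF6 (0.87), E2F6 (0.47) and CBX3 (1.30) rose, MAX (-0.96), HDAC1 (-0.72), HDAC2 (-0.28) and TFDP1 (-0.52) fell, and L3MBTL2 stood at 33.5 CPM in the knockout and 35.2 CPM in the wild type. PCGF6, E2F6, HDAC2, TFDP1 and L3MBTL2 were chosen for mention after their values were seen. The part of these genes in the levels of the 10 was not tested.

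RefSeq promoters were matched for 7 of the 10 genes, with 9 starts in all, since TRIML2 and NLRP2 have 2 starts each. MEIOB, HORMAD1 and TEX15 had no entry. The 9 promoters ranged widely in CpG content. The ratio of CpG observed to that expected from the C and G present was 0.928 in HORMAD2 and 0.756 in HIST1H1T, which lie at percentiles 84.1 and 63.1 of 35116 promoters. It was 0.212 in ALPPL2 and 0.217 in ALPP, at percentiles 23 and 23.7. The ACTL8 (0.557), TRIML2 (0.431 and 0.571) and NLRP2 (0.529 and 0.536) starts lay nearer the median of all promoters, 0.579. The letters CACGTG, which read the same on both strands and are the E-box that MGA and MAX can bind, were in 1 of the 9 promoters, that of ACTL8, and in 7.26% of all promoters. The letters TTCCCGC, a form of the E2F site, searched on both strands, were in 0 of the 9 and in 6.55% of all. Neither motif contains the other, and a match is a description of the sequence and not a measured site.

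**Figure D3:**
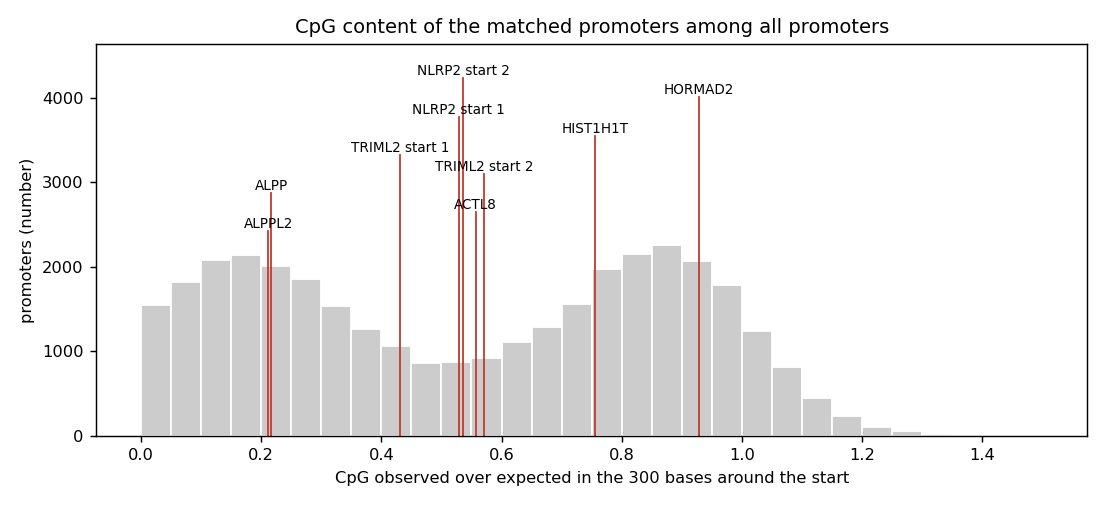
Number of RefSeq promoters (300 bases around the start, GRCh38.p14) by the ratio of observed to expected CpG, in grey bars, with the 9 promoters of 7 of the 10 genes as red lines whose height has no meaning. HORMAD2 (0.928) and HIST1H1T (0.756) stand in the CpG-rich group, and ALPPL2 (0.212) and ALPP (0.217) in the CpG-poor one.

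The genes around the 10 did not all move with them. Within 500 kb of a start, 159 other genes were in the table and 130 were tested: 64 rose, 29 fell and 37 did not pass (median 0.29). Away from the histone cluster of HIST1H1T the 97 tested neighbours held 35 rises (36.1%) and 28 falls (28.9%) with a median of 0.00, beside 37.8% and 36.6% of all genes tested. MEIOB stands between MSRB1, a methionine sulfoxide reductase that rose (1.60), and HAGH, a glyoxalase that fell (-1.20). HORMAD1 has GOLPH3L, a Golgi protein that rose by 0.47, 23.9 kb downstream, and HORMAD2 stands between MTMR3, a lipid phosphatase that rose (0.28), and LIF, a cytokine that fell (-2.77). The call of MTMR3 was lost without wild type replicate 1. Around ACTL8, the 2 tested neighbours did not pass, and ARHGEF10L stood at 2.25 ± 0.611 CPM in the knockout and 2.89 ± 0.203 CPM in the wild type. The nearest gene of the table upstream of ALPP, DIS3L2 at 417 kb, stood at 39.3 ± 1.72 CPM in the knockout and 42.7 ± 0.893 CPM in the wild type and did not pass. Of the 7 tested neighbours of ALPP, 2 rose, 2 fell and 3 did not pass. Near NLRP2, RDH13 did not pass (0.34), while 8 of 14 tested neighbours rose and 1 fell. All of these lay downstream of the start of NLRP2. A row without a position in the annotation used could not be counted as a neighbour. The row of NLRP7, which rose, had no position. With total-count scaling 50 of all 130 neighbours fell.

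**Figure D4:**
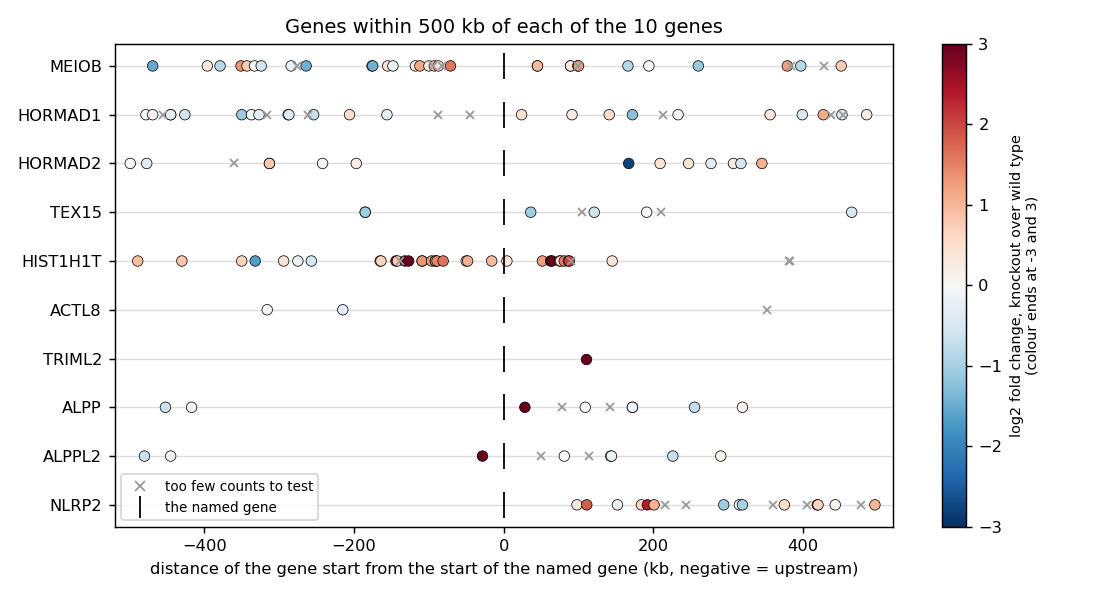
Genes of the table within 500 kb of each of the 10 genes, by the distance of their start from the start of the named gene in kilobases (negative is upstream); each circle is a tested gene coloured by its log2 fold change, METTL18 knockout over wild type, with colours ending at -3 and 3, and crosses had too few counts to test. The row of HIST1H1T is dense and mostly red (29 of 33 rose), and the row of TEX15 holds no red circle (0 of 6 rose). For all genes tested, 37.8% were called higher and 36.6% lower.

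TEX15 was the single lower gene, and most of its tested neighbours were lower too. Of 6 tested genes within 500 kb, 0 rose, 4 fell and 2 did not pass: PPP2CB (-1.06), a phosphatase subunit, WRN (-1.0), a DNA helicase, GSR (-0.63), glutathione reductase, and RBPMS (-0.52) fell. PURG averaged 0.404 CPM in the knockout and 0.871 CPM in the wild type and did not pass, nor did GTF2E2 (100 and 101 CPM). The wider region was looked at after these values were seen. Within 10 Mb of TEX15, 83 genes were tested: 1 rose and 68 (81.9%) fell, with a median of -0.94, beside -1.26 for TEX15. Among all genes tested 37.8% rose and 36.6% fell, with a median of 0.016. From the start of chromosome 8 to 20 Mb past TEX15, 142 genes were tested: 6 (4.23%) rose and 116 (81.7%) fell, with a median of -1.0. On the rest of the chromosome, 243 genes were tested: 102 (42.0%) rose and 80 (32.9%) fell, with a median of 0.12. Within 10 Mb of the other 9 genes the medians ran between -0.44 around TRIML2, over 22 genes, and 0.72 around NLRP2, over 238 genes. The largest shares there were 63.6% lower around TRIML2, 63.0% higher around NLRP2 and 62.8% higher around HIST1H1T, against 81.9% lower around TEX15. What underlies the step on chromosome 8 was not tested.

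**Figure D5:**
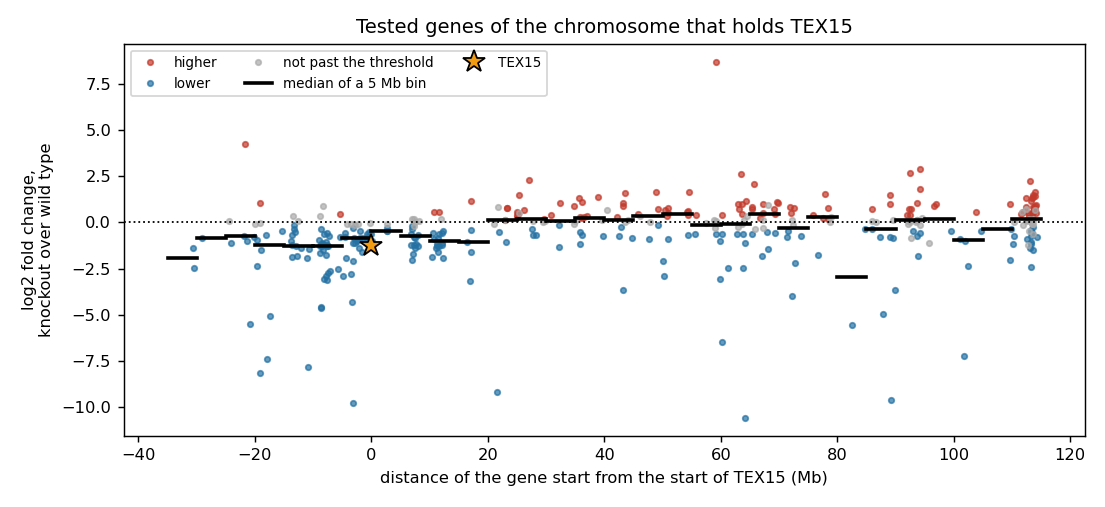
Log2 fold change, METTL18 knockout over wild type, of 385 tested genes of chromosome 8, by the distance of their start from that of TEX15 (star) in megabases, negative toward the start of the chromosome; points are genes coloured by their call in the edgeR quasi-likelihood test, black bars are medians of 5 Mb bins, most of which hold under 20 genes. The medians of all 11 bins up to 20 Mb past TEX15 are below 0, as against 7 of the 19 bins beyond.

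Markers of the cell types that use these genes gave no whole programme. Of 10 germ cell markers, 7 were in the table, with a summed level of 49.6 to 53.3 CPM in knockout libraries and 22.2 to 25.4 CPM in wild-type libraries. Most of it was TFAP2C (49.9 CPM in the knockout and 19.4 CPM in the wild type), DDX4, MAEL, NANOS3 and SOX17 were under 1 CPM in both groups, and PRDM1 fell (-2.50), with 0.589 CPM in the knockout and 3.37 CPM in the wild type. Of 12 trophoblast markers, 6 were in the table, summing to 10.5 to 11.9 CPM in knockout libraries and 3.84 to 6.06 CPM in wild-type libraries. KRT7 (2.20) and TFAP2A (1.29) rose, and CGA, ERVW-1 and PSG1 were at or near 0. Markers of Sertoli and Leydig cells, the somatic cells of the testis, summed to at most 0.983 CPM in a knockout library and 0.366 CPM in a wild-type library. Of 11 pluripotency markers 9 were tested and 8 rose, with a summed level of 1004 to 1077 CPM in knockout libraries and 706 to 737 CPM in wild-type libraries. Rises were 88.9% of those tested, beside 37.8% of all genes tested. ZFP42, LIN28A, NANOG and SALL4 had 0 wild-type counts, POU5F1 had 2 counts over the knockout and 0 over the wild type, and SOX2 stood at 538 CPM and 552 CPM and did not pass. Of 12 blood markers, 6 were in the table: GATA2 rose (1.87), TAL1 fell (-2.13) and CD33 was at 0 in all libraries. The part of any of these in the levels of the 10 was not tested.

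Other rows had a pattern over the 5 libraries much like those of the 10. By Euclidean distance in log2(CPM + 1), the rows nearest to MEIOB were DNMT3L, a cofactor of DNA methylation in germ cells (distance 0.216, 84 CPM in the knockout and 0 counts in the wild type), MYOF (0.408), a membrane protein, and OLFML3 (0.448), a secreted protein. Nearest to HORMAD1 were ZNF239 (0.125), GAL (0.194), a neuropeptide, and UGT8 (0.197), an enzyme of glycolipid synthesis. Nearest to ALPP were PCDHGA11 (0.149), a protocadherin, RHBDD1 (0.162), an intramembrane protease, and TRIM60 (0.181). Since the distance follows the level, these rows share a like level in the knockout and next to no counts in the wild type.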

How the data were processed

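The authors deposited raw counts of ribosome footprints for 5 HAP1 libraries in a table whose 14084 rows pair an Ensembl transcript with a gene symbol; 387 rows held no count, and 39 symbols had more than 1 row. Per the labels' protocols, lysates in cycloheximide went through RNase I digestion and a sucrose gradient for monosomes, and gel-selected footprints of 28 to 32 bases were ligated to adapters with 4 randomized bases. The molecule field of the labels says polyA RNA, unlike that protocol. Per the submitters' processing notes, Bowtie and hg38 were used; the sources used here give no version, no counting tool and no treatment of duplicates or multiply matching reads. Intervals and floors therefore cover counting error only.

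Counts were tested in edgeR 4.0.16 (R 4.3.3) with a robust quasi-likelihood fit on the genotype alone, TMM factors, filterByExpr (minimum count 10, minimum total 15) and Benjamini-Hochberg adjustment over all 11335 genes tested. Where a group had 0 counts, a fold is against a floor of 3 counts over the group (0.0636 CPM for the knockout, 0.263 CPM for the wild type); other ratios of the 10 genes are of summed counts over scaled library sizes, with exact 95% Clopper-Pearson binomial intervals. The 10 genes and the lists were chosen with earlier results of these data known, and the lists leave the 10 out. The genes named are the 10, METTL18, RPL3, up to 4 genes per list, by smallest adjusted p among those past the threshold whose groups do not overlap, the nearest gene of the table on each side, and for MEIOB, HORMAD1 and ALPP the 3 rows most alike; some of these are not reported here, and others are named as chosen after their values were seen or as defining or partner genes at their values.

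Coordinates and coding lengths come from GENCODE release 29 on hg38 (13968 transcripts, 99.2%), promoters from RefSeq on GRCh38.p14. Identity was computed between coding sequences, because no protein sequences were used here. The chi-square per degree of freedom was 2.73 to 3.48 between knockout libraries and 1.14 between the wild-type libraries, counted as 2 because the labels give them as separate. The wild-type libraries thus differed by little more than counting error, and whether they are technical copies is not known. The edgeR script was tested on simulated data. Alternatives were RLE, upper quartile and total-count scaling, DESeq2 1.42.0, limma-voom (limma 3.58.1), no low-count filter, a mean CPM of at least 10, the replicate number as a block, knockout counts thinned to wild-type depth, and each library left out in turn; 2 trimmed lists came after seeing the data. Also used were Python 3.11.15, pandas 2.3.3, numpy 2.4.6, scipy 1.17.1, biopython 1.88 and matplotlib 3.10.9.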

Additional observations from a re-analysis of the deposited data

How the results depend on the processing

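Among the 10 genes and the genes that the rule for named genes gave, for which the alternatives were run, no gene past the threshold changed its direction; RDH13, past it in no alternative run, changed sign with thinned knockout libraries. Genes named for other reasons were not recomputed. The log2 ratio of the 10 genes, from group mean CPM or the floor, ran over all alternatives between 7.34 and 8.45 for MEIOB, 1.06 and 2.40 for HORMAD1, 1.46 and 2.65 for HORMAD2, -1.53 and -1.21 for TEX15, 8.18 and 8.70 for HIST1H1T, 6.64 and 7.75 for ACTL8, 5.60 and 7.35 for TRIML2, 4.15 and 5.28 for ALPP, 7.52 and 9.02 for ALPPL2, and 3.63 and 4.74 for NLRP2. Of the counts of calls, 388 stayed within 1.5 times and 36 did not. With total counts, recombination genes had 5 rises and 3 falls, germ line genes 3 and 3, cancer testis antigens 9 falls and neighbours 50 falls. A mean CPM of at least 10, which tests fewer genes, gave 1 rise for the chromosome axis, 3 rises and 0 falls for recombination, 3 and 2 for the germ line, 6 rises for cancer testis antigens, 5 for actins, 1 and 0 for the NLR list, 7 and 2 for the trophoblast and 9 rises for TRIM genes. Germ line falls numbered 2 with upper quartile factors, without a low-count filter and with thinned knockout libraries. Thinning also gave 5 rises of actins, and 1 rise and 0 falls of the NLR list. DESeq2 gave 1 fall of HORMA proteins and partners. Among the libraries left out in turn, NLR rises ran from 1 to 3, HORMA falls from 1 to 2, germ line falls from 0 to 2, recombination falls from 1 to 2 and actin rises from 5 to 8. Without genes other cells use, 8 trophoblast genes rose; without genes of dividing cells, 9 cancer testis antigens rose and 1 fell. Both trimmed lists were chosen after seeing the data, and the cause of the other moves was not tested.

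The replicate numbers are shared by the groups, but libraries of the same number did not deviate together (r = 0.00853 for number 1 and 0.0231 for number 2), so they share only a number. With the replicate block, 4322 genes rose and 4154 fell, against 4288 and 4143 without it, and falls numbered 2 for recombination and 2 for the germ line. Of single genes, PURG (-1.37) and DIS3L2 (-0.39) passed as lower with total counts, and GOLPH3L (0.20), MND1 (0.15), MTMR3 (0.01) and TDRKH (0.15) no longer passed; MTMR3 was also lost with DESeq2 (0.27) and without wild type replicate 1 (0.24). Depth limits the low genes: HORMAD1 and HORMAD2 rest on 54 and 71 knockout counts in all.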

Other observations

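The wider surroundings of NLRP2, HIST1H1T and TRIML2 were looked at after their values were seen. Within 10 Mb of NLRP2 near the end of chromosome 19, 238 genes were tested, of which 150 rose and 30 fell in the knockout (edgeR quasi-likelihood test), with a median log2 fold change of 0.72. Over all tested genes of chromosome 19 other than NLRP2, 827 in number, 440 rose and 200 fell, with a median of 0.39. Among the close neighbours of NLRP2 were TNNI3, the cardiac troponin I gene, at 11.8 ± 2.17 CPM in knockout libraries and 2.29 ± 0.382 CPM in wild-type libraries (SD, n = 3 and n = 2; log2 fold change 2.36), and EPS8L1, a gene also listed with the trophoblast, at 6.21 CPM in the knockout and 1.76 CPM in the wild type (1.82). Within 10 Mb of HIST1H1T, 76 of 121 tested genes rose and 21 fell (median 0.54). Within 10 Mb of TRIML2, 6 of 22 tested genes rose and 14 fell (median -0.44), so TRIML2 and its neighbour ZFP42, both with at most 2 wild-type counts, lay among genes that were mostly lower. For comparison, 37.8% of all genes tested rose and 36.6% fell.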
